A study of Mus musculus with 6 samples.

Results

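Glycosaminoglycan synthesis and sulfation enzymes were examined in RNA from mouse chondrocytes, the cells that build cartilage. The genes were taken by name from a list of 41 enzymes and transporters, and all 41 had values among the 29510 gene symbols of the deposited table. They comprise 5 linker genes, 16 chondroitin and dermatan genes, 12 heparan genes and 8 genes that supply sulfate or activated sugars. The cKO group held 3 libraries from primary cultured chondrocytes of genotype Nf2f/f;Prx1-Cre, in which a recombinase driven by a limb mesenchyme enhancer can delete the floxed Nf2 alleles. The control group held 3 libraries from Nf2f/f chondrocytes, which carry the same floxed alleles and no Cre. All 6 cultures were grown without differentiation, and neither ages nor the number of animals used were stated. The product of Nf2 is merlin, a tumour suppressor at the cell cortex that feeds into the Hippo pathway, and the series title speaks of primary cilia and Hedgehog signalling in the development of limb and thumb.

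Glycosaminoglycans are long, negatively charged sugar chains that are built on core proteins in the Golgi. A short linker that begins with xylose is made first, and the next sugar decides whether a chondroitin or a heparan chain follows. Sulfate is then added from the activated donor PAPS, which the cell makes from imported sulfate. Chondroitin sulfate on aggrecan holds water in cartilage, heparan sulfate binds growth factors such as the Hedgehog ligands, and inherited defects in sulfate uptake or PAPS synthesis are known for causing short-limbed skeletal dysplasias.

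Genes of sulfate uptake and PAPS synthesis were among those that fell. Slc26a2, the sulfate importer, was at 13.5 ± 1.29 FPKM in cKO and 34.5 ± 2.93 FPKM in control libraries, and Papss2, a PAPS synthase, was at 85.0 ± 7.81 FPKM in cKO and 145 ± 7.79 FPKM in control (SD, n = 3 each). In all, 8 of the 39 genes tested fell (20.5%) and none rose, where 4.57% of all genes tested fell and 7.60% rose. The other 2 of the 41 were too low to test. The other 6 that fell were Xylt1 of the linker, Csgalnact1, Chsy3 and Chst11 of chondroitin, Extl1 of heparan, and the sugar nucleotide carrier Slc35d1.

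Levels were deposited as FPKM, fragments scaled by transcript length and library total, and were summed here over the transcripts of each gene. Nf2 summed over its transcripts was at 17.5, 15.6 and 18.1 FPKM in cKO 1 to 3 and at 16.7, 16.6 and 14.1 FPKM in control 1 to 3. Such a sum also takes reads outside a deleted part, so it does not check the deletion. Between 12441 and 12697 genes reached 1 FPKM in a library. Read depth is unknown, because no trial depth brought most low values near whole numbers of fragments. At the best of many trial depths per library, only 15.3 to 17.7% lay within 0.05 fragments of a whole number. By chance 10% would at a single fixed depth, and more at the best of many. The labels do not say whether the libraries of a group had separate animals or cultures as their source. The p-values therefore reflect only the spread among these samples, which could be technical in part. Xist, the RNA of the inactive X chromosome, was at 51.4, 41.6 and 0.0288 FPKM in cKO 1 to 3 and at 51.1, 0.525 and 53.9 FPKM in control 1 to 3. In cKO 3 and control 2 it was thus far below the other libraries of the group. The libraries of a group were therefore not all repeats of a single RNA sample.

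The labelled cell type was checked against 16 chondrocyte markers, which all averaged 0.5 FPKM or more. Col2a1, the main cartilage collagen, stood at 1914 ± 209.5 FPKM in cKO and 3758 ± 405 FPKM in control (SD, n = 3 each). Of the 16 markers 15 fell, where 4.57% of all genes tested fell. Their summed level was 2465 to 3057 FPKM in cKO and 5745 to 6992 FPKM in control. In bulk RNA, fewer cells of a type and less RNA per cell cannot be told apart, and the part of this difference in the changes below was not tested. Fibroblast and tendon markers were summed at 579 to 928 FPKM in cKO and 896 to 919.6 FPKM in control, and 2 of 8 tested fell. Osteoblast markers were summed at 57.7, 197 and 243 FPKM in cKO and 45.8 to 67.6 FPKM in control. Most of that sum was Ibsp, at 172, 44.7 and 207 FPKM in cKO 1 to 3 and 29.6 to 48.5 FPKM in control. None of the 5 tested osteoblast markers passed limma, and 2 had an unadjusted p under 0.05.

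Adipocyte markers were summed at 54.9 to 91.5 FPKM in cKO and 48.1 to 53.6 FPKM in control. Of 4 tested 2 rose, where 7.60% of all genes tested rose. Skeletal muscle markers were summed at 8.83 to 11.0 FPKM in cKO and 4.44 to 5.81 FPKM in control. Acta1 and Des, the 2 muscle markers tested, both rose. The Des call held in all 17 alternative settings, and the Acta1 call was lost in 8 of 17 (limma adjusted p = 0.0501 to 0.121). Myod1, a defining muscle factor, averaged 0.00847 FPKM in cKO and 0.0101 FPKM in control. Macrophage markers were summed at 7.39 to 10.5 FPKM in cKO and 6.002 to 17.7 FPKM in control, and none of 3 tested passed limma, with 0 at an unadjusted p under 0.05. Epithelial markers were summed at 2.77 to 4.10 FPKM in cKO and 2.24 to 2.87 FPKM in control, and the 1 tested, Trp63, rose, a call lost in 8 of 17 alternative settings (limma adjusted p = 0.0569 to 0.317). Epcam, a defining epithelial gene under the filter, was lower in every cKO library, at 0.0355 to 0.0858 FPKM in cKO and 0.457 to 0.862 FPKM in control. All endothelial and erythroid markers with values were under the filter, with sums of 0.375 to 0.819 and 0.0192 to 0.0566 FPKM in cKO and of 0.217 to 0.414 and 0.523 to 2.55 FPKM in control. The macrophage gene C1qb and the 4 globin genes measured were listed at 0 in every cKO library.

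The test was limma on log2(FPKM + 0.5) over the 14080 genes that averaged 0.5 FPKM or more, 2-sided, with Benjamini-Hochberg adjustment over all of them at 0.05, and log2 changes are cKO over control with the standard error (SE) of the fit. Of the 41 genes 39 reached the filter, 8 fell, 0 rose and 31 did not pass. The 8 that fell were 20.5% of the 39, against 4.57% of all genes tested called lower, 7.60% called higher and 12.2% called in either direction. Among the 31 that did not pass, 7 higher and 2 lower genes had an unadjusted limma p under 0.05. The median log2 change was -0.09 over the 39 and 0.05 over all genes tested. Over all genes 1070 rose and 643 fell, so that 62.5% of calls were higher. The share was 45.5% with median-of-ratios scaling and 47.5% with quantile normalization.

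In each of the 8 genes that fell, the highest cKO library stood below the lowest control library. The groups stood apart in 17 of the 39 genes (43.6%), near the 35.1% over all genes tested. The calls for Slc26a2, Papss2, Xylt1, Chsy3, Chst11 and Extl1 held under all 17 alternative settings, and those for Csgalnact1 and Slc35d1 did not.

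**Figure D1:**
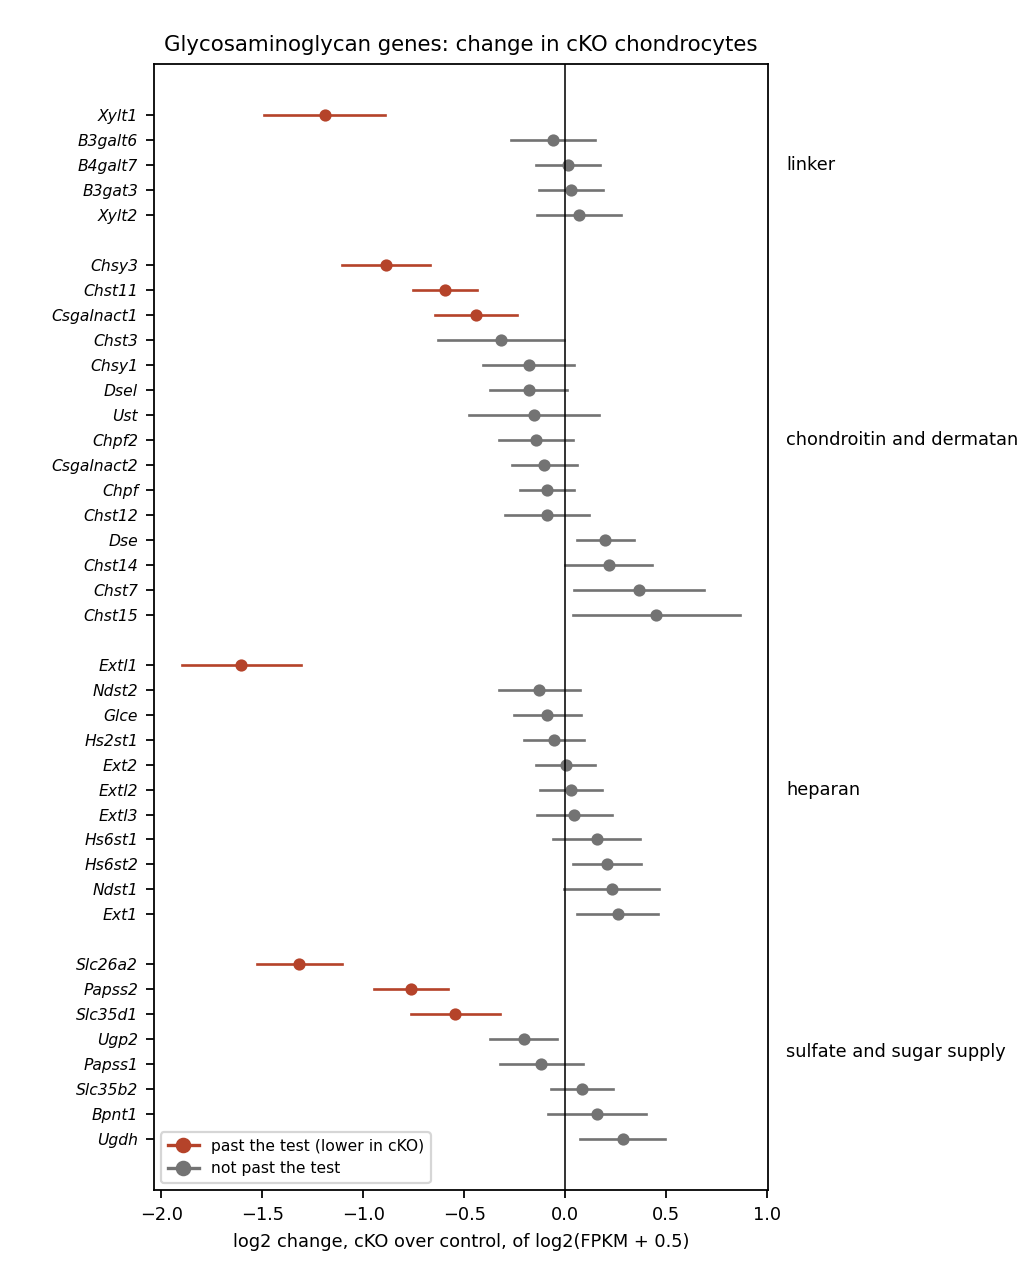
Log2 change (cKO over control, horizontal axis) of the 39 genes above the filter, grouped by step, with dots for the limma estimate and lines for its 95% interval. The 8 genes past the test are in red and all lie below 0, from Csgalnact1 at -0.44 to Extl1 at -1.61, and the 31 others, in grey, lie between -0.32 and 0.45.

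Promoter windows of 3 of the genes that fell are shown from RefSeq, GRCm38.p6, 250 bases before to 50 bases after the start site, 5′ to 3′ on the strand of the gene. Papss2 is shown because RNA was assigned to transcripts that begin at or near both of its starts. Extl1 is shown because its fall was the largest, and Chst11 as the sulfotransferase that fell. Capitals mark matches, on either strand, of GGAATG, the core motif of the TEAD factors downstream of merlin, or of AACAAT, one of 2 Sox motifs searched.
Papss2, first start, chr19:32595465-32595764, plus strand: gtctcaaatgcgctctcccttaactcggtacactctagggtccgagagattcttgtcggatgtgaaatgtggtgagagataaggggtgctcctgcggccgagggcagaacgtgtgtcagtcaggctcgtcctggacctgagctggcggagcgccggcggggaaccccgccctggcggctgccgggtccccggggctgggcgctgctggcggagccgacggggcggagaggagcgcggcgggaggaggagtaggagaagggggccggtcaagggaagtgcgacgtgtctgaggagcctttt
Papss2, second start, chr19:32619755-32620054, plus strand: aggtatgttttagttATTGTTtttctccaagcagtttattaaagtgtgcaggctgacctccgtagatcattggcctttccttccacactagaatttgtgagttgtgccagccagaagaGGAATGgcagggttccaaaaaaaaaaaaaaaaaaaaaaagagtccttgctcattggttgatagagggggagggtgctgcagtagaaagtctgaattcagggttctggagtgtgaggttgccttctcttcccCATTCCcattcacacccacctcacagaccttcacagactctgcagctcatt
Extl1, chr4:134372498-134372797, minus strand: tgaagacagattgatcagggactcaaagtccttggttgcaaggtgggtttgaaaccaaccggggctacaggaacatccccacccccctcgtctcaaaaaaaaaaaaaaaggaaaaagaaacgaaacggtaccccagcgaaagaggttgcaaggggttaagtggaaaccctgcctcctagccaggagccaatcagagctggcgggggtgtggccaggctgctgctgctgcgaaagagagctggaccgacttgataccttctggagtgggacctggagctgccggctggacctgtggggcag
Chst11, chr10:82985247-82985546, plus strand: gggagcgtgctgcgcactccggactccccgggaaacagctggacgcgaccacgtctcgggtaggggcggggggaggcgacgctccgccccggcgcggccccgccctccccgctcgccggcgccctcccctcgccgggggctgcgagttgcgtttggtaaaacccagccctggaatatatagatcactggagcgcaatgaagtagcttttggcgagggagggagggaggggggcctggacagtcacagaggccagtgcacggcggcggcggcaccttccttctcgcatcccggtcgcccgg

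The second Papss2 window held GGAATG beginning 132 bases before the start site, its reverse complement beginning 1 base before it, and the reverse complement of AACAAT beginning 235 bases before it. The other 3 windows held neither of these, and none of the 4 held the Gli motif GACCACCCA or the other Sox motif ACAAAG. The 2 Papss2 windows also differed in base composition, with 66.3% GC and 27 CG dinucleotides at the first start and 44.3% GC and 1 CG at the second. Windows were found for 34 of the 41 genes, 42 windows in all, and for 4 of the 8 that fell, Slc35d1 being the other. GGAATG was in 16.7% of the 42 windows, against 14.7% of all 32851 windows. AACAAT was in 7.14% against 10.7%, ACAAAG in 2.38% against 18.7%, and GACCACCCA in 0 against 0.253%. These matches are letters in a window and are not evidence of binding.

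The linker is begun by the xylosyltransferases, and 1 of the 5 linker genes fell, where 4.57% of all genes tested fell. With so few genes in a step, this count and those of the steps below describe single genes. Xylt1, the enzyme that adds xylose to the core protein, was at 13.1, 15.8 and 10.9 FPKM in cKO 1 to 3 and at 32.1, 32.5 and 27.4 FPKM in control 1 to 3. All 3 cKO libraries lay below every control library. The log2 change was -1.19 (SE 0.13, limma adjusted p = 0.00169). Almost all of the signal, 99.9% in cKO and 99.5% in control, was in ENSMUST00000032892, which has 12 exons on chromosome 7 from 117380979 to 117673580 (mm10, plus strand).

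Xylt2, the other xylosyltransferase, averaged 4.79 ± 0.167 FPKM in cKO and 4.55 ± 0.365 FPKM in control, with a log2 change of 0.07 (limma adjusted p = 0.664). B3gat3, which adds the glucuronic acid that closes the linker, was at 20.8, 20.8 and 23.4 FPKM in cKO and 21.5, 21.1 and 21.0 FPKM in control. B4galt7, which adds the first galactose, was at 15.8, 16.2 and 16.7 FPKM in cKO and 15.1, 16.3 and 16.8 FPKM in control. The groups overlapped in both, with log2 changes of 0.03 and 0.01 that took a negative sign under either rescaling. B3galt6, which adds the second galactose, had a log2 change of -0.06. The 5 genes summed to 59.5 ± 1.64 FPKM in cKO and 76.3 ± 2.23 FPKM in control. Without Xylt1 the other 4 summed to 46.3 ± 1.88 FPKM in cKO and 45.6 ± 0.775 FPKM in control, so that the difference in the sum lay in Xylt1.

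Chondroitin chains are built by 6 of the genes, and 2 of these fell, where 4.57% of all genes tested fell. Csgalnact1, which adds the first N-acetylgalactosamine and so commits the chain to chondroitin, was at 22.5, 28.6 and 24.8 FPKM in cKO and 33.7, 34.5 and 35.1 FPKM in control. The cKO libraries varied more than the control libraries, and the groups stood apart. Its log2 change was -0.44 (SE 0.088, limma adjusted p = 0.0177). The call was lost without control 1, 2 or 3 (limma adjusted p = 0.0592, 0.0714 and 0.0540) and with no filter on low values (0.0662). The main transcript, ENSMUST00000078350, has 10 exons on chromosome 8 from 68356781 to 68735146 (minus strand).

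Chsy3, a synthase that extends the chain, was at 3.47, 3.14 and 3.64 FPKM in cKO and 6.61, 7.25 and 6.35 FPKM in control. The highest cKO library was well under the lowest control library, and the log2 change was -0.89 (SE 0.095, limma adjusted p = 0.00154). The main transcript, ENSMUST00000080721, has 3 exons on chromosome 18 from 59175650 to 59411336 (plus strand). Chsy1, the more abundant synthase, averaged 19.4 ± 2.43 FPKM in cKO and 22.0 ± 1.48 FPKM in control and did not pass (limma adjusted p = 0.264). Chpf2, a partner of the synthases, was at 27.5, 30.2 and 24.7 FPKM in cKO and 30.2, 30.5 and 30.2 FPKM in control. With Chpf at -0.09, Chpf2 at -0.14 and Csgalnact2 at -0.10, all 6 chain-building genes had a log2 change below 0, though 4 did not pass. They summed to 117 ± 3.31 FPKM in cKO and 138 ± 0.561 FPKM in control.

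Sulfation of chondroitin and dermatan involves 8 of the genes, of which 7 were tested and 1 fell, where 4.57% of all genes tested fell. Chst11, which places sulfate on the 4 position of N-acetylgalactosamine and is needed for mouse cartilage growth plates, was at 19.8, 21.7 and 20.5 FPKM in cKO and 33.5, 30.9 and 30.0 FPKM in control. All cKO libraries were lower than all control libraries, and the log2 change was -0.60 (SE 0.069, limma adjusted p = 0.00208). All of its signal was in ENSMUST00000040110, with 3 exons on chromosome 10 from 82985498 to 83195900 (plus strand), which begins 1 base after the RefSeq start of the window shown. Chst12, which makes the same modification, averaged 17.6 ± 1.24 FPKM in cKO and 18.8 ± 1.91 FPKM in control, a log2 change of -0.09 (limma adjusted p = 0.561). Chst13, of the same group, was under the filter at 0, 0.0287 and 0 FPKM in cKO and 0.0358, 0.0508 and 0.0707 FPKM in control.

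The 5 genes for dermatan or for other sulfate positions did not pass. Chst3, which sulfates the 6 position, averaged 1.58 ± 0.282 FPKM in cKO and 2.08 ± 0.0622 FPKM in control (log2 change -0.32, limma adjusted p = 0.163). Chst7, which acts at the same position, averaged 4.98 ± 0.990 FPKM in cKO and 3.72 ± 0.389 FPKM in control (log2 change 0.37, limma adjusted p = 0.126), so the pair had estimates of opposite sign. Chst15, which adds a further sulfate to a sulfated unit, was at 2.19, 1.28 and 1.94 FPKM in cKO and 1.13, 1.02 and 1.33 FPKM in control. The groups overlapped through cKO 2, the log2 change was 0.45 (limma adjusted p = 0.139), and without that library it passed (0.0477). Chst14, which sulfates dermatan, averaged 14.4 ± 1.10 FPKM in cKO and 12.4 ± 1.23 FPKM in control, a log2 change of 0.22. Ust, which sulfates the uronic acid, had a log2 change of -0.15. The 8 genes summed to 62.3 ± 1.61 FPKM in cKO and 71.1 ± 2.11 FPKM in control. Chst11, which fell, is part of that sum, and 3 of the 7 genes tested had a log2 change above 0.

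Dermatan is made when epimerases turn glucuronic acid of the chain into iduronic acid, and neither epimerase passed the test. Dse was at 39.3, 42.1 and 43.3 FPKM in cKO and 35.5, 36.0 and 36.8 FPKM in control. Every cKO library was above every control library, but the log2 change of 0.20 (SE 0.061) had a limma adjusted p of 0.0706. Dsel averaged 8.88 ± 0.324 FPKM in cKO and 10.1 ± 0.854 FPKM in control, with a log2 change of -0.18 (limma adjusted p = 0.194).

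The sum for Dsel joined 2 transcripts that differed in direction, described here after their values were seen. Its coding transcript ENSMUST00000035462 was at 6.45, 5.73 and 6.23 FPKM in cKO and 8.77, 9.83 and 9.11 FPKM in control. ENSMUST00000186365, annotated as a processed transcript over nearly the same stretch of chromosome 1, was at 2.68, 2.70 and 2.47 FPKM in cKO and 1.50, 0.954 and 0 FPKM in control. Neither passed as a single transcript (limma adjusted p = 0.0801 and 0.286 over 27761 transcripts). With protein-coding transcripts alone the log2 change of Dsel was -0.55 (limma adjusted p = 0.00948), and with its highest transcript alone the adjusted p was 0.0312. Overlapping transcripts share reads, so the split between them is uncertain.

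**Figure D2:**
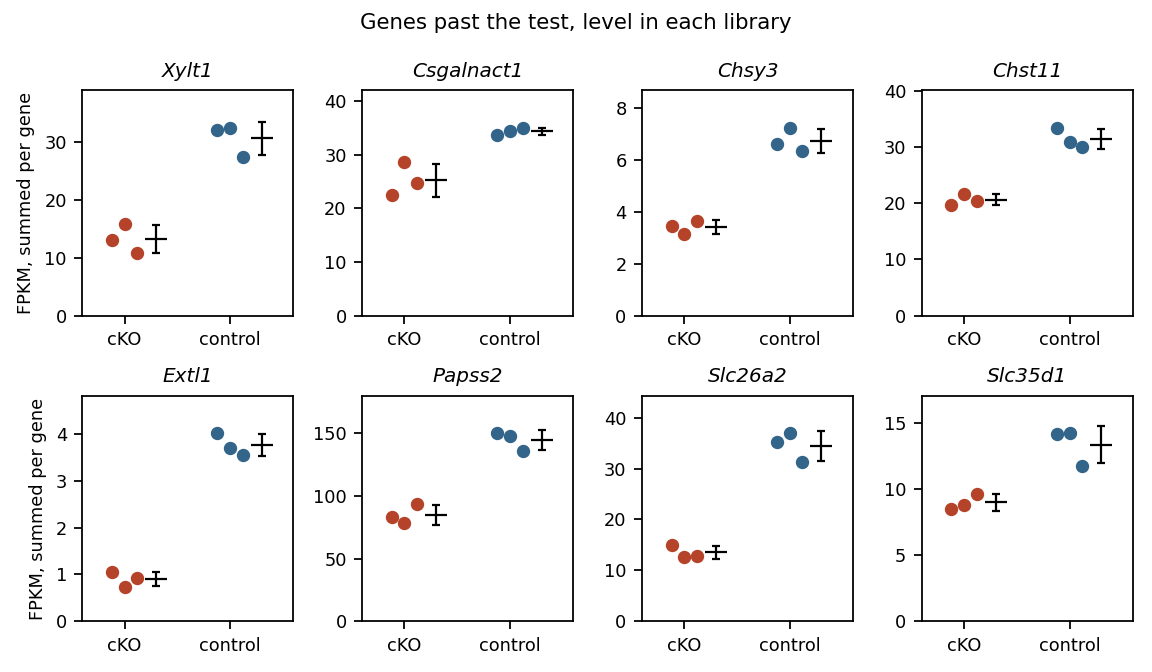
FPKM per library (vertical axes, from 0) of the 8 genes that passed the test, with 3 cKO libraries in red, 3 control libraries in blue, and the mean ± SD of each group beside them. In each panel the 3 cKO points lie below the 3 control points, as in Slc26a2, where cKO ranges from 12.7 to 15.0 and control from 31.2 to 36.9.

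Heparan chains are extended by the Ext family, and 1 of its 5 members fell, where 4.57% of all genes tested fell. Extl1, an N-acetylglucosaminyltransferase of that family, was at 1.06, 0.740 and 0.921 FPKM in cKO and 4.02, 3.70 and 3.57 FPKM in control. It was low in both groups, and its cKO mean was 0.241 times the control mean. The log2 change of -1.61 (SE 0.13, limma adjusted p = 0.000347) was the largest of the 39, on a scale that understates low genes. Its transcript ENSMUST00000030643 has 11 exons on chromosome 4 from 134356372 to 134372558 (minus strand) and held 99.6% of the signal in cKO and 99.0% in control.

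Ext1 and Ext2 form the polymerase that extends the chain. Ext2 was at 49.4, 53.2 and 48.4 FPKM in cKO and 49.7, 48.8 and 52.3 FPKM in control, so that the groups overlapped, with a log2 change of 0.0018 whose 95% interval ran from -0.14 to 0.15 (limma adjusted p = 0.989). Ext1 averaged 16.1 ± 1.29 FPKM in cKO and 13.4 ± 1.02 FPKM in control, a log2 change of 0.26 (limma adjusted p = 0.0897). Extl3, which starts the heparan chain, and Extl2, which acts on the linker, had log2 changes of 0.05 and 0.03, both with the opposite sign under median-of-ratios scaling. The 5 genes summed to 89.4 ± 2.27 FPKM in cKO and 88.8 ± 3.20 FPKM in control, a difference within the SD of either group.

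None of the 6 heparan modification genes tested passed limma, and 1, Hs6st2, had an unadjusted p under 0.05. Hs6st2, which sulfates the 6 position of glucosamine, was at 36.1, 41.9 and 37.7 FPKM in cKO and 34.2, 34.2 and 31.4 FPKM in control. The groups stood apart narrowly, with a log2 change of 0.21 (SE 0.074, limma adjusted p = 0.108). Ndst1, which begins modification by swapping acetyl groups for sulfate, averaged 31.3 ± 3.71 FPKM in cKO and 26.6 ± 2.58 FPKM in control, a log2 change of 0.23 (limma adjusted p = 0.177). Ndst2, Hs2st1, which sulfates iduronic acid, Hs6st1 and the epimerase Glce had log2 changes between -0.13 and 0.16. Hs3st1, whose product is known for the antithrombin binding site of heparan chains, was under the filter at 0.181, 0.523 and 0.430 FPKM in cKO and 0.544, 0.555 and 0.262 FPKM in control. The 7 genes summed to 110.2 ± 7.68 FPKM in cKO and 101 ± 2.92 FPKM in control.

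Sulfate supply involves 5 of the genes, and 2 of these fell, where 4.57% of all genes tested fell. Slc26a2, the sulfate importer whose defects cause diastrophic dysplasia in humans, was at 15.0, 12.7 and 12.9 FPKM in cKO and 35.3, 36.9 and 31.2 FPKM in control. Its cKO libraries were all under the lowest control library by a wide gap, and the log2 change was -1.32 (SE 0.091, limma adjusted p = 0.000208). The main transcript, ENSMUST00000146409, has 4 exons on chromosome 18 from 61192919 to 61211612 (minus strand).

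Papss2 makes PAPS, and its loss shortens limbs in the brachymorphic mouse. It was at 83.1, 78.2 and 93.5 FPKM in cKO and 150.0, 148 and 136 FPKM in control. The groups stood well apart, and the log2 change was -0.77 (SE 0.080, limma adjusted p = 0.00136). The main transcript at or near each start was lower in each cKO library than in any control library. ENSMUST00000235594 (32595790 to 32665710, near the first start) was at 50.1, 56.7 and 64.8 FPKM in cKO and 88.2, 97.3 and 93.6 FPKM in control. It begins past the end of the first window shown, whose RefSeq start is 32595715. ENSMUST00000025833 (32620005 to 32667187, from the second start) was at 28.3, 21.6 and 28.7 FPKM in cKO and 61.8, 50.6 and 42.0 FPKM in control. As single transcripts neither passed, with log2 changes of -0.70 and -0.95 (limma adjusted p = 0.0619 and 0.0976).

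Papss1, the other PAPS synthase, averaged 26.3 ± 3.01 FPKM in cKO and 28.5 ± 1.25 FPKM in control, a log2 change of -0.12 (95% interval -0.33 to 0.09, limma adjusted p = 0.432). Slc35b2, which carries PAPS into the Golgi, averaged 49.1 ± 3.31 FPKM in cKO and 46.3 ± 1.50 FPKM in control, a log2 change of 0.08. Bpnt1, which clears the used donor in the cytosol, had a log2 change of 0.16. The 5 genes summed to 187 ± 12.2 FPKM in cKO and 265 ± 10.1 FPKM in control. Papss2 and Slc26a2, which fell, are part of that sum.

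**Figure D3:**
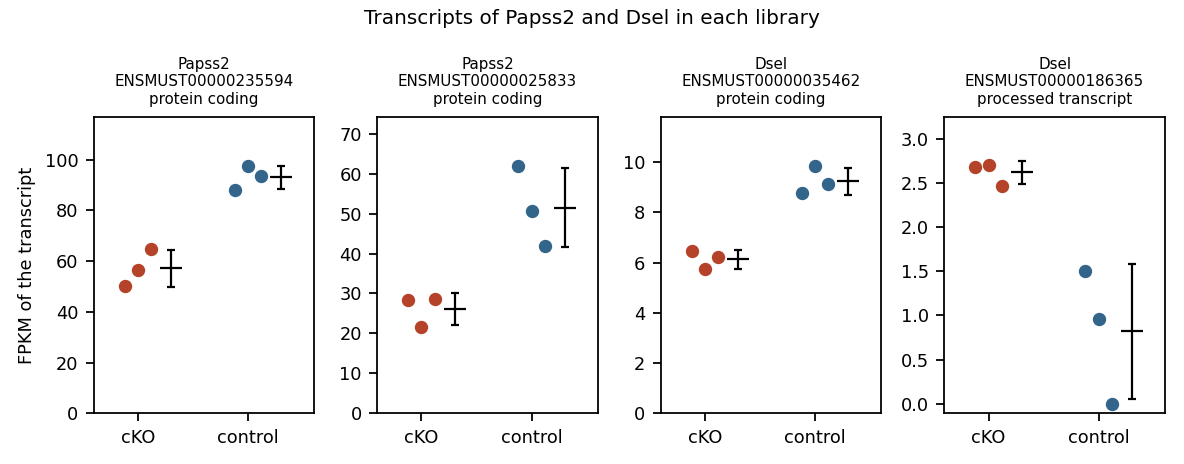
FPKM per library (vertical axes) of the 2 main Papss2 transcripts, from different starts, and of the 2 main Dsel transcripts, with cKO in red, control in blue and the mean ± SD beside each group. Both Papss2 transcripts are lower in cKO, whereas the coding Dsel transcript is lower and the processed transcript higher, the last at 0 in control 3.

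Sugar nucleotide supply involves 3 of the genes, and 1 fell, where 4.57% of all genes tested fell. Slc35d1, which carries the activated sugars of chondroitin and is needed for mouse skeletal development, was at 8.46, 8.81 and 9.65 FPKM in cKO and 14.1, 14.2 and 11.7 FPKM in control. Control 3 was the closest of its group to the cKO libraries, and the groups stood apart. Its log2 change was -0.54 (SE 0.096, limma adjusted p = 0.0115). The call was lost without control 1 (0.0522) or control 2 (0.0558), with no filter (0.0510), and with the highest transcript alone (log2 change -0.42, limma adjusted p = 0.121). That transcript, ENSMUST00000036195, has 12 exons on chromosome 4 from 103170656 to 103214803 (minus strand).

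Ugdh, which makes UDP-glucuronic acid, was the most abundant of the genes at 151, 184 and 156 FPKM in cKO and 123, 136 and 143 FPKM in control. All cKO libraries were above all control libraries, but the log2 change of 0.29 (SE 0.092) did not pass (limma adjusted p = 0.0804). Ugp2, which makes the UDP-glucose that Ugdh uses, was at 71.6, 70.6 and 81.8 FPKM in cKO and 88.1, 86.9 and 82.9 FPKM in control. The groups were separated by little, and the log2 change of -0.20 had a limma adjusted p of 0.103, against 0.0299 with quantile normalization and 0.0369 without cKO 3. The 3 genes summed to 247 ± 16.1 FPKM in cKO and 233 ± 6.99 FPKM in control.

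**Figure D4:**
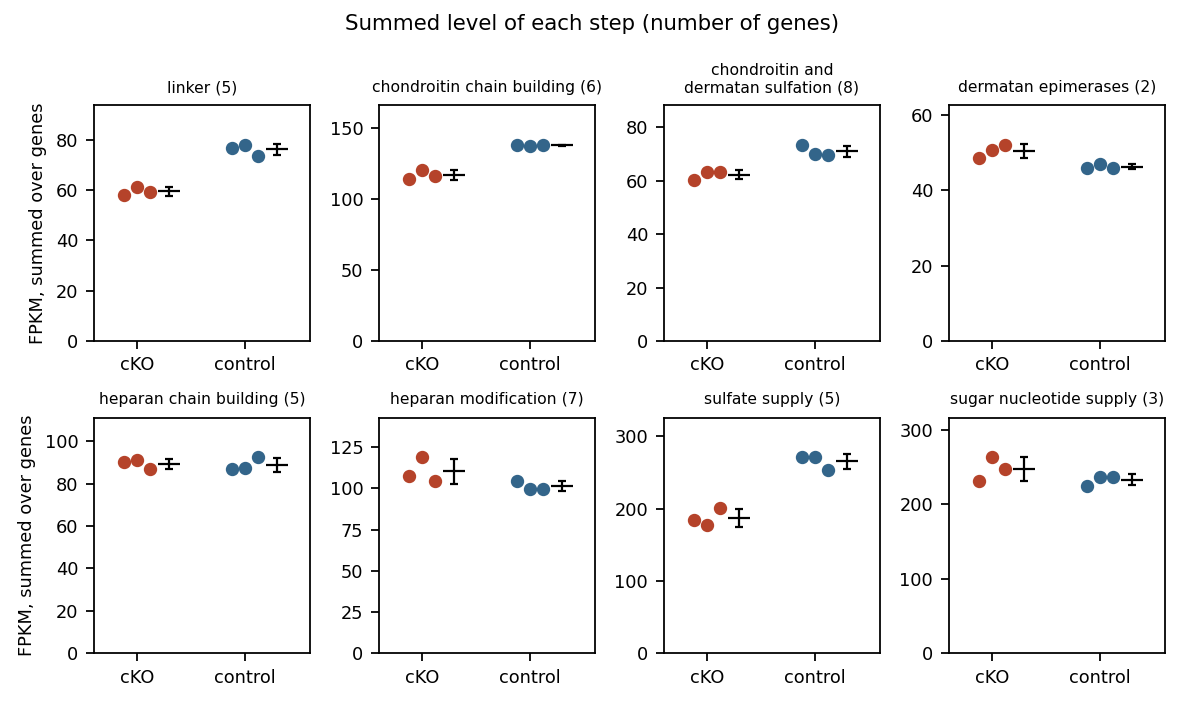
FPKM summed over the genes of each step (vertical axes, from 0), per library, with cKO in red, control in blue, the mean ± SD beside each group and the number of genes in the panel title. The cKO sums lie below the control sums for the linker, both chondroitin panels and sulfate supply, as in sulfate supply with 187 in cKO and 265 in control, and overlap or lie above them elsewhere. Without Xylt1 the linker sums were 46.3 in cKO and 45.6 in control. The sums include the genes that fell. Chst11 averaged 20.6 in cKO and 31.5 in control, Papss2 85.0 and 145, and Slc26a2 13.5 and 34.5. Of the 7 chondroitin and dermatan sulfation genes tested 3 had a log2 change above 0, as had 2 of the 5 sulfate supply genes. A lower sum thus does not show a fall across a step.

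The 31 genes that did not pass had log2 changes from -0.32 to 0.45, with 17 above 0 and 14 below. For 28 of them the 95% interval lay within 0.5 of 0, and over all 31 the intervals reached from -0.63 to 0.87. A miss of the threshold does not show that these levels were alike.

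For 7 pairs of related genes, not always of the same step, 1 gene fell, and the share of that gene within the pair is given as a description without a test, since the pairs were set after the values were seen. Xylt1 made up 73.2, 76.2 and 70.3% of the summed FPKM of Xylt1 and Xylt2 in cKO and 87.9, 88.4 and 84.7% in control. Papss2 made up 76.4 ± 1.30% of the PAPS synthase pair in cKO and 83.5 ± 1.37% in control. Chst11 made up 54.0 ± 2.62% of Chst11 and Chst12 in cKO and 62.7 ± 1.12% in control. These shares show that the gene that fell remained the larger of each of these 3 pairs in both groups.

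Csgalnact1 made up 62.7 ± 2.74% of Csgalnact1 and Csgalnact2 in cKO and 68.1 ± 1.09% in control. Slc35d1 made up 71.2 ± 2.28% of Slc35d1 and its relative Slc35d2 in cKO and 80.0 ± 3.07% in control. Chsy3 and Extl1 were the smaller of their pairs. Chsy3 made up 15.0 ± 0.719% of Chsy1 and Chsy3 in cKO and 23.5 ± 2.22% in control, and Extl1 made up 7.30 ± 1.21% of Extl1 and Extl2 in cKO and 25.1 ± 1.78% in control (SD, n = 3 each throughout).

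**Figure D5:**
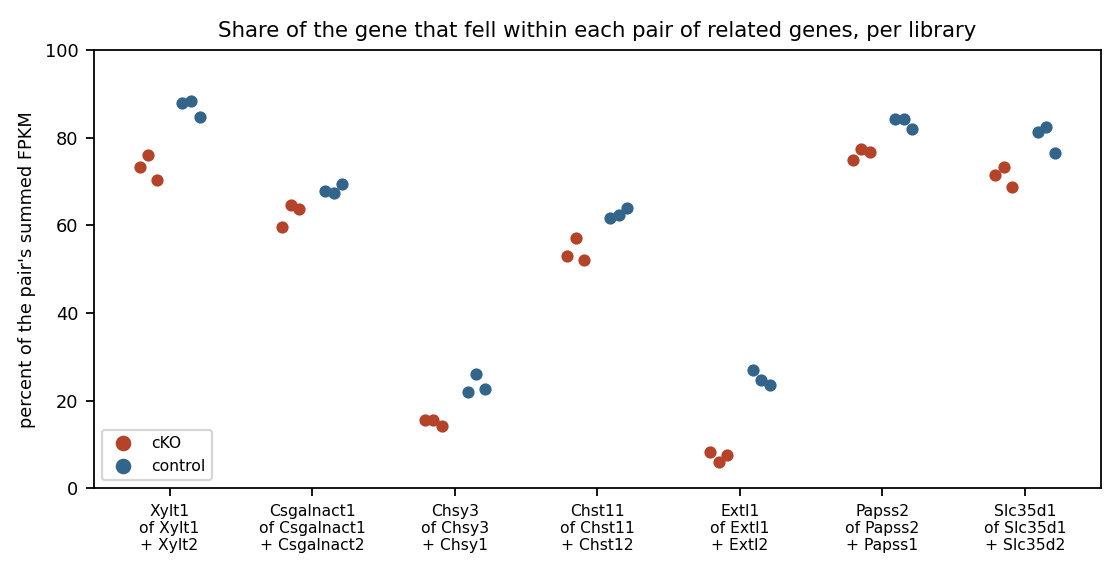
Share of the gene that fell in the summed FPKM of each pair (vertical axis, percent, 0 to 100), per library, with cKO in red and control in blue. In all 7 pairs the 3 cKO points lie below the 3 control points, which follows from the choice of the pairs, and the shares differ most for Extl1 at 7.30% in cKO and 25.1% in control.

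By single transcript, 75 of the 151 transcripts of these genes were tested, 5 fell and 0 rose, with 21 at an unadjusted limma p under 0.05, against 0.609% of all 27761 transcripts called in either direction. The 5 were the main transcripts of Slc26a2, Extl1, Chst11, Xylt1 and Chsy3. Leaving out any 1 library gave 0 or 1 call. Of the 151 transcripts 7 were marked significant in the authors' deposited table, against 2.19% of all transcripts there. The authors' deposited table gives the main transcript of Slc26a2 a fold of 0.395 (q = 4.24e-32), that of Extl1 a fold of 0.242 (q = 5.25e-24) and that of Xylt1 a fold of 0.434 (q = 2.75e-15). It also marks Papss2 ENSMUST00000236290 as higher in cKO, though it was at 4.71 FPKM in cKO 1 and listed at 0 in the other 5 libraries. The other 3 marked there are lesser transcripts of Papss1, Slc26a2 and Slc35d1. Main transcripts of Chst11, Chsy3 and Csgalnact1 had a low q there but changed less than 2-fold and were unmarked. Their folds were 0.656, 0.505 and 0.714 (q = 1.15e-12, 1.50e-10 and 2.92e-07). The 2 main Papss2 transcripts, ENSMUST00000235594 and ENSMUST00000025833, were likewise lower and unmarked, at folds of 0.615 and 0.509 (q = 1.43e-05 and 3.37e-05). The coding Dsel transcript, at a fold of 0.664 (q = 1.05e-06), was unmarked too. That of Slc35d1 had a fold of 0.732 (q = 0.111). In the other direction, the main Ugdh transcript was higher in cKO there, at a fold of 1.24 (q = 0.0197), and unmarked.

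Other genes of the pathway were read from lists beside the 41. Of 3 other linker genes tested, 1 fell, 1 rose and 1 did not pass, where 4.57% of all genes tested fell and 7.60% rose. Fam20b, the kinase that phosphorylates the xylose of the linker, averaged 25.4 ± 1.13 FPKM in cKO and 32.7 ± 0.730 FPKM in control (log2 change -0.36, limma adjusted p = 0.0105). Its call was lost with the highest transcript alone (0.370) and without control 2 (0.0545). Pxylp1, the phosphatase that removes that phosphate, averaged 27.8 ± 2.23 FPKM in cKO and 19.7 ± 0.820 FPKM in control (log2 change 0.49, limma adjusted p = 0.00768). With the highest Pxylp1 transcript alone the sign turned to -1.20 and the call was lost (0.215), so the rise rests on the sum over transcripts. Kinase and phosphatase thus had opposite estimates in the sums.

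Of 14 other sugar nucleotide and sulfate supply genes tested, 4 fell, 0 rose and 10 did not pass. Over all genes tested 4.57% fell and 7.60% rose. Gfpt2, which starts the making of amino sugars, was at 7.93, 7.84 and 7.71 FPKM in cKO and 14.1, 14.0 and 13.7 FPKM in control, and the call held in all 17 alternatives (log2 change -0.80, SE 0.065, limma adjusted p = 0.000385). Its libraries were tightly grouped and far apart. Gfpt1, which catalyses the same step, averaged 27.7 ± 0.153 FPKM in cKO and 31.1 ± 0.463 FPKM in control and did not pass (limma adjusted p = 0.0881). Impad1, which clears the used sulfate donor in the Golgi, averaged 42.8 ± 1.95 FPKM in cKO and 53.1 ± 1.52 FPKM in control (log2 change -0.31, limma adjusted p = 0.0168), a call lost without control 1 (0.0712) or control 2 (0.0785).

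Gnpnat1, which acetylates the amino sugar, averaged 8.61 ± 0.328 FPKM in cKO and 11.0 ± 0.809 FPKM in control (log2 change -0.33, limma adjusted p = 0.0322). Slc35a3, a Golgi carrier of UDP-N-acetylglucosamine, averaged 9.59 ± 0.461 FPKM in cKO and 12.3 ± 0.832 FPKM in control (log2 change -0.34, limma adjusted p = 0.0304). The Gnpnat1 call was lost when any 1 library was left out (0.0605 to 0.122), and the Slc35a3 call when any library but control 3 was (0.0518 to 0.120).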

How the data were processed

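RNA of 3 cKO and 3 control libraries was compared. RNA was obtained with Trizol, per the labels' protocols, fragmented with magnesium and reverse transcribed with dUTP. The submitters' processing notes name mm10. Aligner, transcript estimator and the authors' test are not named in the labels or headers. Groups and replicate numbers come from the titles, and table columns were matched to them by genotype and number.

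The authors deposited FPKM per library for 85882 transcripts, per the file headers, and depth is unknown. Their deposited fold divides the cKO mean by the control mean, as recomputed within 1% for 71165 of 71165 transcripts where neither mean was 0, and the log2 column deposited beside it is its logarithm. A p-value and a q-value of an unnamed test were also deposited. Each of the 1881 transcripts marked significant has q under 0.05 and changed 2-fold or more (0 exceptions). All 151 transcripts of the genes have the coordinates of GENCODE M21.

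FPKM were summed per gene symbol. Genes averaging 0.5 FPKM or more were tested on log2(FPKM + 0.5) with limma 3.58.1 (R 4.3.3) and a mean-variance trend, 2-sided, without covariates, with Benjamini-Hochberg adjustment at 0.05 over all genes. Single transcripts were tested likewise. The procedure was run on simulated data with independent normal noise for each gene and library. Such data cannot show how effects shared within a library act on the calls. Python 3.11.15 was used with NumPy 2.4.6, pandas 2.3.3 and Matplotlib 3.10.9.

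The genes and lists were chosen with earlier results of these data known. All 41 genes are accounted for, with values per library for those that passed and for the 2 with the highest mean of each step among the rest. Genes past the test are named from the other pathway lists. The genes of chain breakdown are not reported here. Values per library for Chst13, Chst15, Hs3st1 and the Dsel transcripts, and mentions of other genes that did not pass, were added after they were seen. The 17 alternatives were pseudocounts of 0.1 and 1, no filter, a mean of at least 2 FPKM, median-of-ratios scaling, quantile normalization, protein-coding transcripts, the highest transcript, a Xist covariate, a replicate block, no trend, and leaving out each of the 6 libraries.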

Additional observations from a re-analysis of the deposited data

How the results depend on the processing

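Of the 41 genes 6 to 9 passed under the 17 alternatives, and 6 were called in every one, Slc26a2, Papss2, Xylt1, Chsy3, Chst11 and Extl1. Leaving out 1 library gave 6 to 9, and the genes added under a setting were Ugp2, Dsel or Chst15. Over all genes 1713 passed, against 662 with no filter, 540 with the highest transcript alone, 1097 with the replicate block, 1134 without the trend and 541 to 1332 without 1 library (660 without control 1, 541 without control 2). The cause was not tested. Transcripts of these genes past the test numbered 5, against 1 with no filter, 2 without the trend and 0 with the replicate block (19 at an unadjusted limma p under 0.05), and 0 to 1 without 1 library (16 to 18 unadjusted). Same-numbered libraries had deviations from their group means correlated at -0.016, -0.056 and -0.046, and other pairs at -0.046 to 0.095. With means of 3 libraries, such correlations cannot show whether same-numbered libraries shared a source or a day. The block changed no call among the 41 genes and lost those of Gnpnat1, Slc35a3, Acta1 and Trp63 among the other genes named.

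Among the pathway genes named here, estimates that changed sign were small in the main fit and passed in neither sign, except for Pxylp1. Pxylp1 passed in the sum over transcripts, with a log2 change of 0.49 (limma adjusted p = 0.00768). With median-of-ratios scaling log2 changes were -0.045 for B4galt7, -0.033 for B3gat3, -0.059 for Ext2, -0.030 for Extl2 and -0.013 for Extl3. With quantile normalization they were -0.052 for B4galt7, -0.050 for B3gat3, -0.077 for Ext2 and -0.023 for Extl2. Leaving out 1 library gave -0.030 to 0.048 for B4galt7, -0.029 to 0.056 for B3gat3 and -0.038 to 0.030 for Ext2, which was at -0.0018 with protein-coding transcripts. With the highest transcript alone Chpf was at 0.046, Ndst2 at 0.059, Glce at 0.32 and Pxylp1 at -1.20. The cause of these was not tested. Depth is unknown, so no counting error can be given.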

Other observations

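Lists of neighbouring pathways were also chosen with earlier results known. Of 4 keratan and other sulfotransferase genes tested 1 fell, where 12.2% of all genes tested were called in either direction. It was Chst2, a sulfotransferase acting on N-acetylglucosamine, at 2.34 ± 0.187 FPKM in cKO and 3.96 ± 0.436 FPKM in control (SD, n = 3 each), with a log2 change of -0.65 (limma adjusted p = 0.0115). That call was lost with no filter (0.0519) and without control 2 (0.0546). Of 2 other heparan modification genes tested, the sulfatases Sulf1 and Sulf2, none passed limma, with 0 at an unadjusted p under 0.05. Sulf1 averaged 114 ± 29.2 FPKM in cKO and 98.1 ± 9.06 FPKM in control, and Sulf2 averaged 41.2 ± 6.39 FPKM in cKO and 43.7 ± 3.76 FPKM in control. The other 8 with values on that list, sulfotransferases, were under the filter.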
